A study of Mus musculus with 6 samples.

Results

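Pou5f1, Nanog, Utf1, Dppa4, Tdgf1, L1td1 and Lin28a are genes of pluripotent cells and of the epiblast, the layer from which the whole embryo body forms. They were followed in the node and streak region of early mouse embryos with and without Wnt3a. All probe sets whose platform gene symbol is one of these 7 genes were taken, which gave 7 of 18193 genes measured, with 10 of the 45037 probe sets: 3 for Utf1, 2 for Lin28a and 1 for each of the others. The 2 groups were Wnt3a null and Wnt3a wild type embryos on a mixed C57BL/6 and 129/Sv background, at embryonic day 7.75 to 8 with 0 to 2 somites. RNA of the microdissected region was amplified embryo by embryo, material from 3 embryos of 1 genotype was pooled for each array, and there were 3 pools of each genotype, so 9 embryos per genotype. The region holds node, streak and adjoining epiblast together, and fewer cells of a type cannot be told apart from less RNA per cell in such bulk samples.

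Pluripotency rests on a small circuit of transcription factors, with Pou5f1 (Oct4), Sox2 and Nanog at its centre, that keeps early embryonic cells able to enter every lineage. After implantation the epiblast keeps Pou5f1 while many other genes of the circuit are switched off, and Nanog persists longest in its posterior part, near the streak. The epiblast leaves this state as cells pass through the streak or enter the neural plate, and Pou5f1 itself then fades except in primordial germ cells. Tdgf1 (Cripto) is the membrane co-receptor through which the ligand Nodal signals in epiblast and streak, and Lin28a is an RNA-binding protein that blocks maturation of let-7 microRNAs. Wnt3a is a secreted ligand of the posterior streak that acts through beta-catenin and TCF/LEF factors.

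The arrays were alike in scale, with a median signal of 73.6 to 86.1. Of 11 measured marker genes of node and streak, Wnt3a among them, 10 had a lower and 1 a higher mean log2 signal in null pools. Their summed signal was 23694 to 31141 in null pools against 32622 to 39337 in the wild type, without overlap. Nkx1-2 and Hoxb1 made up most of each sum, and each overlapped on its own. Nkx1-2 had 11376 to 16391 in null against 14974 to 17845 in wild type, and Hoxb1 5783 to 8237 against 6693 to 10389. In 3 of the 11 genes null was lower without overlap. Cdx1 had 988 to 1066 in null against 2377 to 2505 in wild type. Cdx2 had 2193 to 2818 against 3010 to 4669, and Mixl1 406 to 620 against 633 to 2106. Cdx1 was not called by genotype alone (limma, adjusted p = 0.344). It was called with the replicate block and limma's trend and robust options (limma, adjusted p = 0.0035). The null allele cannot be checked on the Wnt3a probe set, whose signal was 761 to 1009 in null against 864 to 1058 in wild type, since the sources used here do not give the altered part of the gene. Wild-type pool 1 stood apart in sex composition, with a signal of 4.31 for Y-linked Eif2s3y against 1053 to 1788 elsewhere. Gapdh, a control for RNA integrity, had a 3' to 5' ratio of 2.09 to 2.39 in null pools against 2.51 to 3.00 in the wild type, while that of Actb overlapped, at 2.38 to 3.83 against 2.68 to 3.69. The part of these marker and ratio differences in the values below was not tested. Over all probe sets limma called 0 of 45037 at an adjusted p of 0.05, a background of 0%, and 2273 (5.05%) had an unadjusted p under 0.05. With 3 pools against 3, an exact permutation test of a single value cannot give a two-sided p below 0.1.

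RefSeq promoter windows of assembly GRCm38.p6, from 250 bases before to 50 bases after each gene start, were found for 6 of the 7 genes (8 windows), all but Dppa4. Both strands were searched for the octamer bound by Pou5f1 (ATGCAAA), a SOX motif (CATTGT) and a TCF/LEF motif (CTTTGAT). These letters occur in 4.63%, 12.6% and 3.73% of all 32851 windows. Nanog carries an octamer and a SOX motif on the minus strand, starting 75 and 67 bases before its upstream start, in its window at chr6:122707239-122707538, plus strand. The matches found did not overlap each other. The SOX motif followed after 1 base by the octamer was found in 2 of 32851 windows (0.00609%), and these are the overlapping windows of the 2 annotated Nanog starts. Lin28a and the downstream Pou5f1 start have 1 SOX motif each, and the TCF/LEF letters are in none of the 8 windows, which says nothing of elements elsewhere. The Nanog window is shown for its paired motif, in capitals, and the windows of Tdgf1 (chr9:110946109-110946408, minus strand) and L1td1 (chr4:98726504-98726803, plus strand), without a match, for the genes whose signals separated the genotypes at their brightest probe set.
Nanog: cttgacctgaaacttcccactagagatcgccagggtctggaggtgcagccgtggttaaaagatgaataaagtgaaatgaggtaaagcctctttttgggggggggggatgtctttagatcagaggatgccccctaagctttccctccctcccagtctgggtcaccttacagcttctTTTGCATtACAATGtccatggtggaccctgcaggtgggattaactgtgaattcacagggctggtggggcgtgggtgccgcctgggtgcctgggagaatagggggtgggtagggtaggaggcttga
Tdgf1: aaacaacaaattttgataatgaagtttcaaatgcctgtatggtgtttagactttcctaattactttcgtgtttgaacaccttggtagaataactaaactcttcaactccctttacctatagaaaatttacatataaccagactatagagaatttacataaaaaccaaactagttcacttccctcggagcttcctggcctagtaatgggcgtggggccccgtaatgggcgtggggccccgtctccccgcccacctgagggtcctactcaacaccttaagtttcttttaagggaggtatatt
L1td1: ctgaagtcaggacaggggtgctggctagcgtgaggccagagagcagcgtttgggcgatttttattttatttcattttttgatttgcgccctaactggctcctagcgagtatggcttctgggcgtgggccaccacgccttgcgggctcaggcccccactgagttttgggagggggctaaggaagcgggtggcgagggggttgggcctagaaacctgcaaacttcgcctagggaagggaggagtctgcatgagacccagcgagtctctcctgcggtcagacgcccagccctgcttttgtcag

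The question for these genes was whether pluripotency transcripts differ in the streak region when Wnt3a is missing. None of the 10 probe sets passed the test (limma, smallest adjusted p = 0.974), and 1, that of Tdgf1, had an unadjusted p under 0.05. In value, 9 of 10 were higher and 1 lower in null pools, with a median log2 difference of 0.82, against 51.7% higher and a median of 0.014 over all probe sets. The higher values were those of L1td1, Tdgf1, Nanog and Utf1, while Pou5f1, Dppa4 and Lin28a had differences of 0.23 or less on the log2 scale. In 6 of the 10 probe sets all 3 pairs of the same replicate number had a higher null signal, as did 15% of all probe sets, and in 3 the genotypes did not overlap with null above wild type, as in 5.57% of all. These values differed with brightness. Among the 6 brighter probe sets, none of them under 71.5 in mean signal, the middle difference was 0.48, and 1 did not overlap. For the 4 dimmer ones it was 1.51, and 2 did not overlap. One of these, Utf1 1443786_at, was separated only by 3.99 in null pool 3 against 3.92 in wild-type pool 1. The 10 probe sets include 3 of Utf1 and 2 of Lin28a, which are not independent. The genes were chosen with earlier results of these data known, so these counts describe the members and support nothing further.

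**Figure D1:**
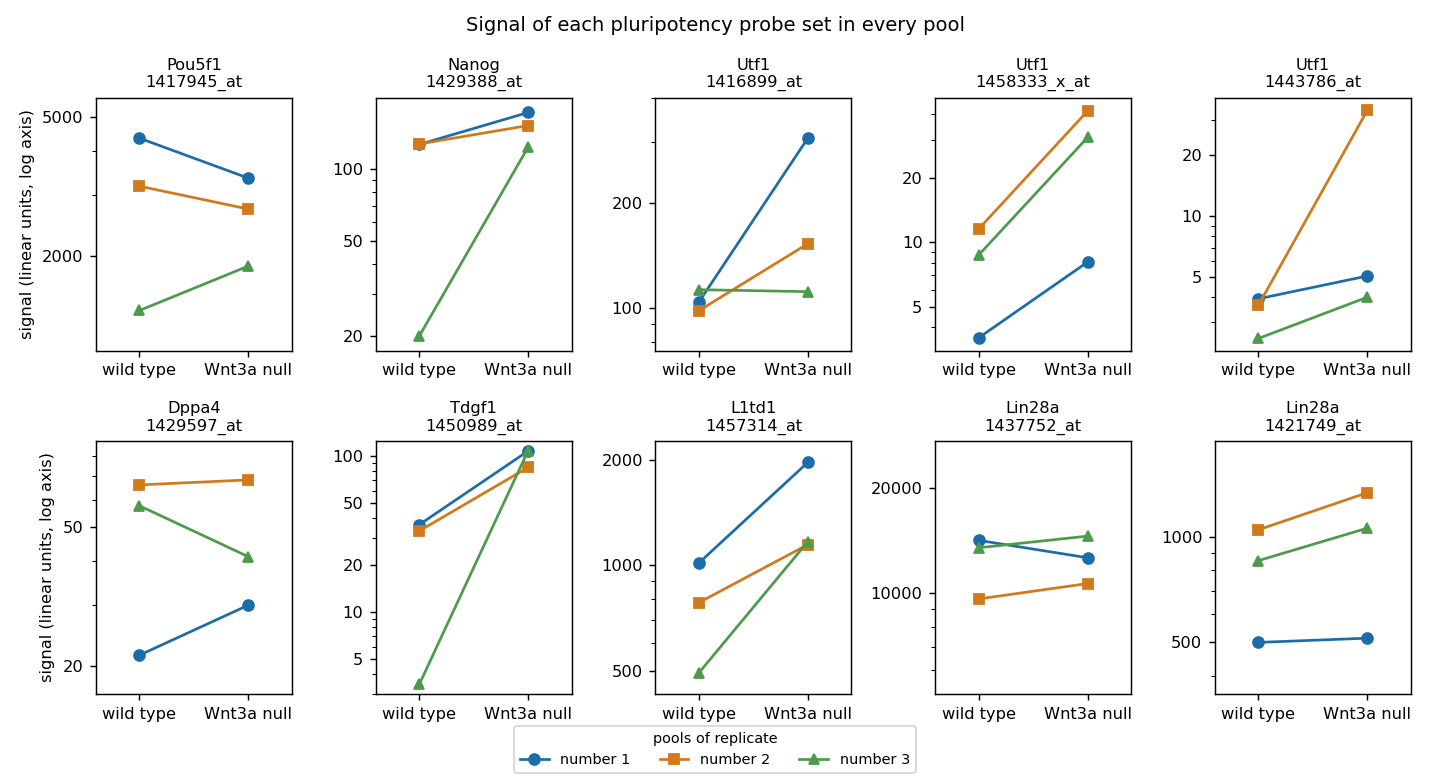
Signal of the 10 probe sets (vertical axes, linear units on a log axis) in wild-type and Wnt3a null pools, with lines joining pools of the same replicate number. All null points lie above all wild-type points for L1td1, Tdgf1 and the dim Utf1 probe set 1443786_at, and Pou5f1 is ordered by replicate number in both genotypes.

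Among the transcription factors, Pou5f1, the central factor of the circuit, was brighter than 93.2% of probe sets and had overlapping values in the genotypes. Its signal was 3344, 2727 and 1874 in null pools 1, 2 and 3 and 4352, 3172 and 1398 in wild-type pools 1, 2 and 3. Pools of number 1 were highest and pools of number 3 lowest in both genotypes, and the null values lay inside the wild-type range. The log2 difference was -0.058 (95% interval -1.29 to 1.17; limma, adjusted p = 1.00), and by pairs it was -0.38, -0.22 and 0.42. Averaged over genotypes, the replicate numbers spanned 1.24 on the log2 scale. With the replicate block and limma's trend and robust options, named the blocked fit from here on, the 95% interval narrowed to -0.37 to 0.25.

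Nanog, the homeobox factor whose expression persists in posterior epiblast, had a signal of 171, 151 and 123 in null and 126, 127 and 20.0 in wild-type pools 1, 2 and 3. Null was higher in each pair, but null pool 3 lay below wild-type pools 1 and 2, so the genotypes overlapped. The means were 149 ± 24.4 and 90.9 ± 61.4 (SD, n = 3 each), a log2 difference of 1.11 with a 95% interval of -0.83 to 3.04 (limma, adjusted p = 1.00). Most of this came from wild-type pool 3. Without that pool the log2 difference was 0.22, while it was 1.55 without wild-type pool 1. In the blocked fit, with all pools, the interval was 0.12 to 2.09 (limma, adjusted p = 0.613).

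Utf1 encodes a chromatin-associated protein of pluripotent cells. Its brightest probe set (1416899_at) had 307, 153 and 112 in null and 104, 98.6 and 113 in wild-type pools 1, 2 and 3. The wild-type pools were close together, null pools 1 and 2 lay above them and null pool 3 lay among them. The log2 difference was 0.73 (95% interval -0.29 to 1.74; limma, adjusted p = 1.00), and 0.31 without null pool 1. In the blocked fit, with all pools, the interval was 0.0019 to 1.45 (limma, adjusted p = 0.651). The other probe sets stood far below the median signal of 71.5. One (1458333_x_at) had 8.09, 41.2 and 31.0 against 3.57, 11.6 and 8.72, and the other (1443786_at) 5.08, 33.4 and 3.99 against 3.92, 3.65 and 2.50. All pairs of both were higher in null, with log2 differences of 1.61 and 1.42 (limma, adjusted p = 1.00 for each), at signals where a change of a few units moves the log2 value widely. The second fell to 0.45 without null pool 2, and on the scale log2(signal + 50) they were 0.38 and 0.24. Their intervals in the blocked fit were -0.49 to 3.72 and -0.79 to 3.62.

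Dppa4, a chromatin-associated protein of pluripotent and germ cells, was dim, with 29.9, 68.3 and 41.2 in null and 21.5, 66.1 and 57.6 in wild-type pools 1, 2 and 3. Pool 1 was lowest and pool 2 highest in both genotypes. Its log2 difference was 0.013 (95% interval -1.35 to 1.38; limma, adjusted p = 1.00), and its sign turned with median centring, cyclic loess and quantile normalization.

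Tdgf1, the Nodal co-receptor, had the largest log2 difference among the 10 probe sets. Its signal was 108, 84.9 and 109 in null and 36.4, 33.2 and 3.44 in wild-type pools 1, 2 and 3. The genotypes did not overlap: the null pools were close together, and wild-type pool 3 was far below the other wild-type pools. Null had 101 ± 13.6 and wild type 24.4 ± 18.2 (SD, n = 3 each), 6.21-fold on the log2 scale, with a log2 difference of 2.64 and a 95% interval of 0.25 to 5.02 (limma, unadjusted p = 0.0359, adjusted p = 0.974). Pairs 1 and 2 gave 1.57 and 1.35 and pair 3 gave 4.98, so the size rests on the signal of 3.44 in wild-type pool 3. Without wild-type pool 3 the log2 difference was 1.52, and on the scale log2(signal + 50) it was 1.05 with all pools. In the blocked fit, with all pools, the interval was 0.92 to 4.35 (limma, adjusted p = 0.422). The mean log2 signal exceeded that of only 38.6% of probe sets.

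L1td1, an RNA-binding protein that works with Lin28a in pluripotent cells, was the only member whose genotypes did not overlap among the 6 probe sets at or above the median signal. Its signal was 1975, 1148 and 1171 in null and 1017, 783 and 493 in wild-type pools 1, 2 and 3. The lowest null pool exceeded the highest wild-type pool, and within each genotype pool 1 was highest. The means were 1431 ± 471 and 764 ± 263 (SD, n = 3 each), a log2 difference of 0.92, or 1.89-fold. The 95% interval was -0.029 to 1.87 (limma, unadjusted p = 0.0552, adjusted p = 0.996). The pairs gave 0.96, 0.55 and 1.25. In the blocked fit the interval was 0.59 to 1.25 and the adjusted p was 0.0746 (limma), where 0.0488% of all probe sets were called. The log2 difference was 0.63 without wild-type pool 3 and 1.16 without wild-type pool 1.

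Lin28a, the let-7 blocker, had one of the brightest probe sets on the arrays, above 98.9% of all. That probe set (1437752_at) had 12592, 10625.5 and 14522 in null and 14120.5, 9599 and 13450.4 in wild-type pools 1, 2 and 3. Pool 2 was lowest in both genotypes and the genotypes overlapped throughout. The log2 difference was 0.031 (95% interval -0.61 to 0.67; limma, adjusted p = 1.00), and -0.15 to 0.21 was the interval in the blocked fit. The dimmer probe set (1421749_at) had 512, 1335 and 1057 against 498, 1046 and 853. It was higher in null in each pair by at most 0.35, with a log2 difference of 0.23 (limma, adjusted p = 1.00).

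**Figure D2:**
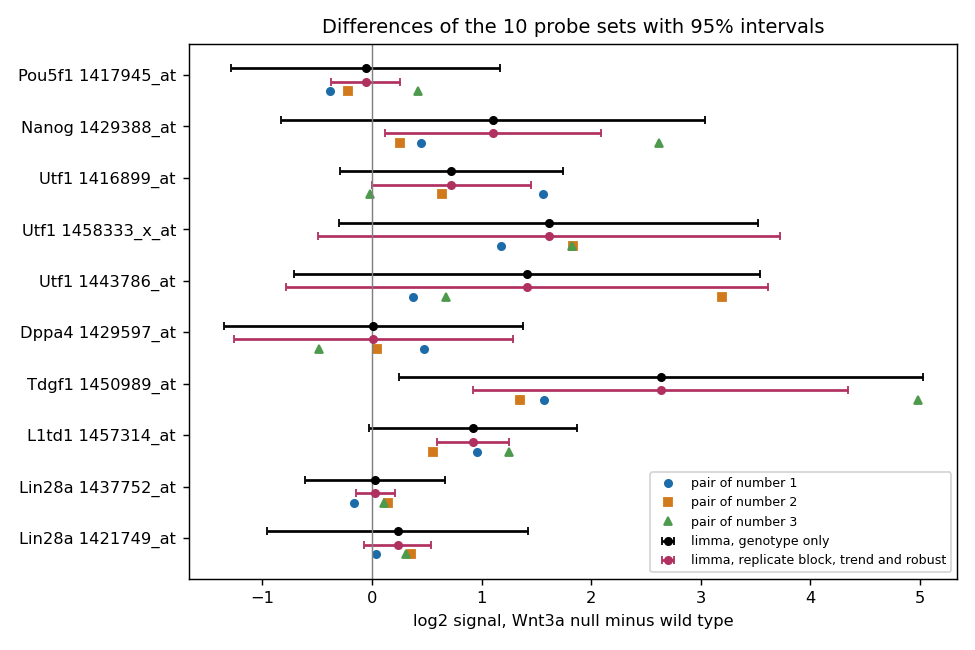
Log2 signal difference, Wnt3a null minus wild type (horizontal axis), for the 10 probe sets: estimate with 95% interval from limma without and with the replicate block, and the 3 pair differences as coloured points. Tdgf1, L1td1, Nanog, the dim Utf1 probe sets and the dim Lin28a probe set lie to the right of 0 in all pairs. Pou5f1, Dppa4, the brightest Utf1 probe set and the bright Lin28a probe set have points on both sides of 0.

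Wild-type pool 3 was the lowest of the 6 arrays for 4 of the 7 genes at their brightest probe set, namely Pou5f1, Nanog, Tdgf1 and L1td1. It was the lowest for 15.8% of all probe sets. That pool also had the highest Gapdh 3' to 5' ratio of the 6 arrays, 3.00, while its Actb ratio, 3.23, lay among the others. The part of this ratio in its low values was not tested. No null pool was lowest for any of the 7 genes. Over all probe sets, null pools 1, 2 and 3 were lowest for 15.7%, 16.5% and 14.9%. Centred on each gene's mean, the 7 genes averaged 0.60, 0.36 and 0.19 on the log2 scale in null pools 1, 2 and 3, and -0.038, -0.035 and -1.08 in wild-type pools 1, 2 and 3. Every null pool thus lay above every wild-type pool in this average, by the least margin for null pool 3, and wild-type pool 3 lay well below the other wild-type pools; the members were chosen with these values known, so this order is a description. Without wild-type pool 1, which differed in sex composition, the log2 difference was 3.22 for Tdgf1, 0.72 for the brightest Utf1 probe set, 0.29 for Pou5f1, 0.14 for the bright Lin28a probe set and -0.49 for Dppa4.

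The replicate number was shared by the pools in their pattern too. Over the 22519 probe sets at or above the median signal, deviations from the genotype means correlated at 0.331, 0.343 and 0.210 between pools of the same number. The genes whose log2 signal followed Pou5f1 most closely over the 6 arrays, among 11148 genes, were 0610009B22Rik (r = 0.995), Armc1 (0.995), Lmf1 (0.990), Ccnb1ip1 (0.984) and Mogat1 (0.982). All 5 differed by 0.030 or less in size on the log2 scale between genotypes, and Pou5f1 by -0.058. Those that followed the mean of the 7 members were Tpd52l2 (r = 0.996), Acot11 (0.982), A930004D18Rik (0.981), Lemd3 (0.977) and Cd82 (0.977). These are the highest of many correlations over 6 arrays that share scaling and pairing, and they are a description only.

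**Figure D3:**
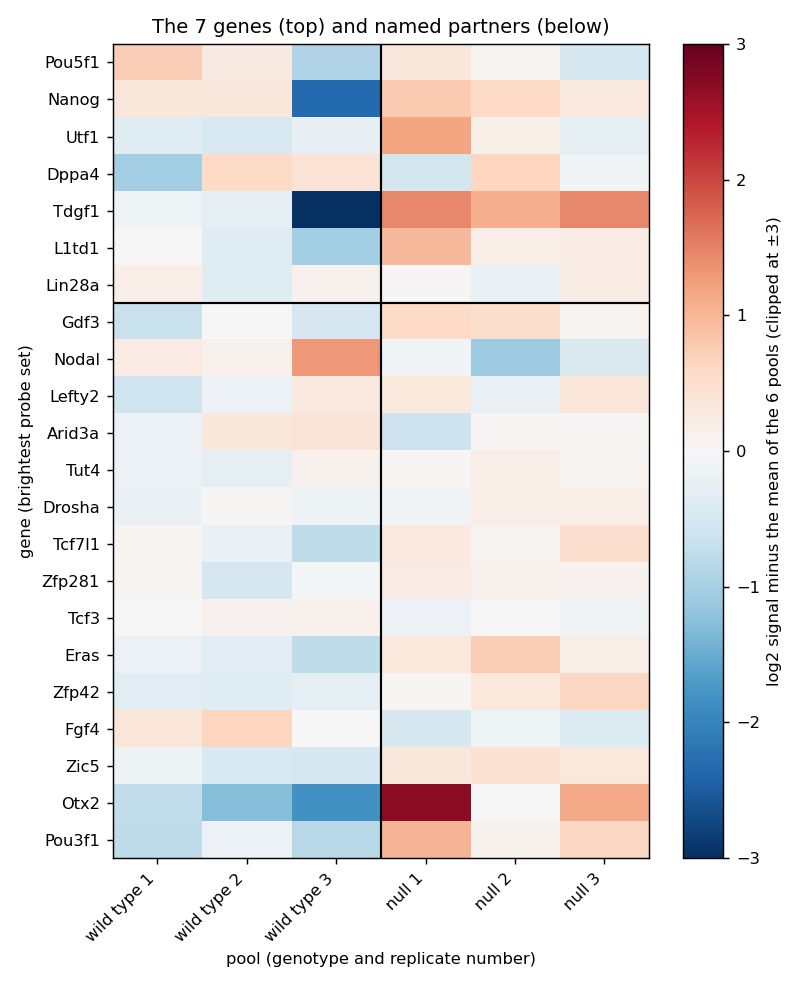
Log2 signal of each gene's brightest probe set minus its mean over the 6 pools (colour, clipped at 3), for the 7 genes above the line and the named genes of the wider lists below it, with pools in columns. Wild-type pool 3 is darkest blue for Tdgf1 and Nanog, and Otx2 is darkest red in null pool 1.

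The wider circuit was read through 5 lists of genes that act with or beside the members, 80 symbols in all, of which 73 were measured. The symbols not found include Zcchc11 and Zcchc6, other names of Tut4 and Tut7, which were measured. None passed the test (limma, smallest adjusted p = 0.809). Of the 73, 46 were higher and 27 lower in value in null pools, with a median log2 difference of 0.13, against 50.8% higher and a median of 0.0050 over 18193 genes. Without the 7 members 40 of 66 were higher, with the same median of 0.13.

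Of 11 genes listed as core factors 8 were higher in value, with a median of 0.30. Of the 11, 5 are members, and without them 4 of 6 were higher, with a median of 0.27. Sox2, the partner of Pou5f1, had 2388 ± 373 in null against 2051 ± 447 in wild type (SD, n = 3 each), a log2 difference of 0.23. Sall4, a zinc finger factor of the circuit, had -0.017. Tcf7l1, a TCF repressor of pluripotency genes, had 1634, 1416 and 1900.4 in null and 1382, 1166 and 784 in wild-type pools 1, 2 and 3, without overlap, and a log2 difference of 0.60 (limma, adjusted p = 1.00). The zinc finger gene Zfp281 had 0.32. Tcf3 (E2A), a different gene from Tcf7l1, for which Tcf3 is an older name, had -0.18. It is counted among the 11 by its symbol.

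Of 16 measured genes of naive pluripotency, the state before implantation, 10 were higher in value, with a median of 0.35. Eras, a Ras-like gene of embryonic stem cells, had 1710, 2267 and 1543 in null and 1202, 1098 and 809 in wild-type pools, without overlap (log2 difference 0.83; limma, adjusted p = 0.934). Zfp42 (Rex1), a zinc finger gene of naive cells, had 99.4, 121 and 148 against 75.9, 74.8 and 78.9 (0.66; limma, adjusted p = 0.963). Fgf4, a growth factor gene also active in the streak, went the other way with 706, 889 and 741 against 1258, 1527 and 987, a log2 difference of -0.68 (limma, adjusted p = 0.979). Naive genes thus went both ways, and none of the list passed.

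Of the 5 lists, genes of the post-implantation epiblast had the most members higher in value, 13 of 16, with a median of 0.41. Otx2, a homeobox gene of epiblast and anterior neural plate, had 1367, 216 and 468 in null and 129, 87.6 and 60.7 in wild-type pools. Its log2 difference was 2.55 (limma, adjusted p = 0.846), and it was the single gene of the 73 called in the blocked fit (limma, adjusted p = 0.0373), a setting in which 22 of all probe sets passed. That call was lost with log2(signal + 50) in the same fit. Pou3f1 (Oct6), a POU factor of primed epiblast and neural plate, had 535, 283 and 406 against 155, 233 and 147 (log2 difference 1.18; limma, adjusted p = 0.846). Zic5, which encodes a zinc finger factor, had 1331, 1405 and 1309 against 937, 763 and 737 (0.74; limma, adjusted p = 0.809). For all 3 the genotypes did not overlap, but they were named for the smallest p of their list, so this follows closely from the choice. Null was higher without overlap in 6 of the 16 genes, against 1011 of 18193 over all genes. The DNA methyltransferase gene Dnmt3b and the adhesion gene Cdh1, both epiblast genes, had 0.34 and 0.46.

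**Figure D4:**
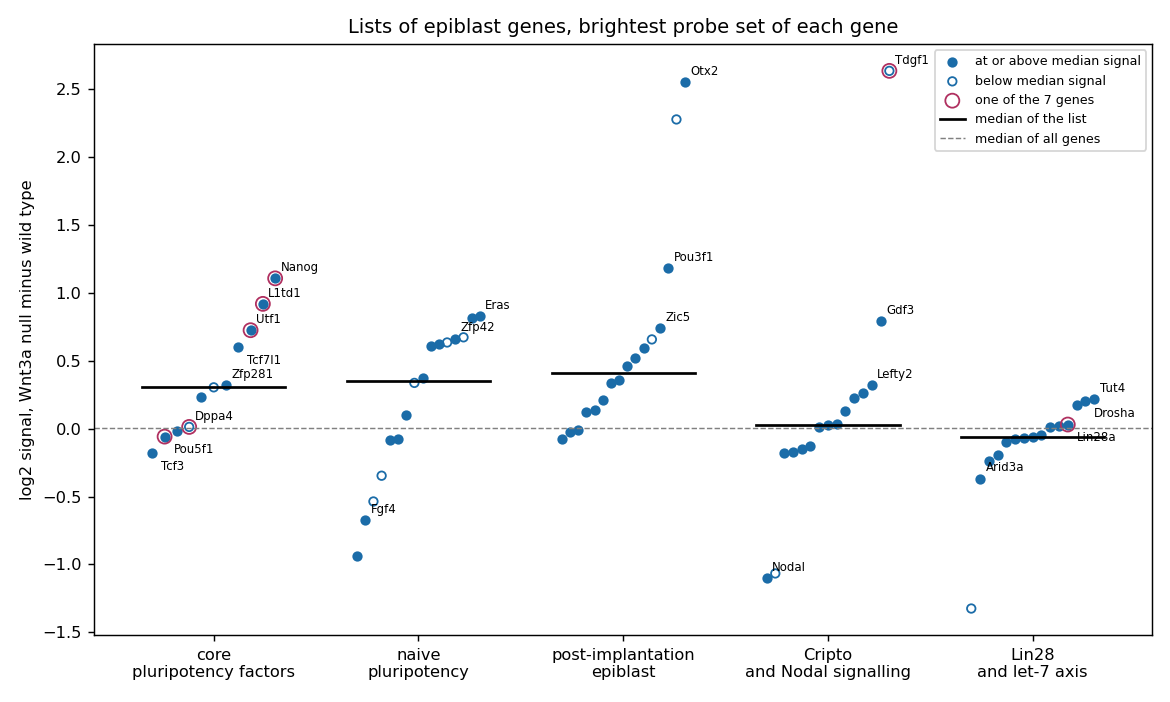
Log2 signal difference, Wnt3a null minus wild type (vertical axis), of the brightest probe set of each measured gene in 5 lists (horizontal axis); filled points are at or above the median signal, rings mark the 7 genes, bars are list medians. Medians run from -0.059 for the Lin28 and let-7 axis to 0.41 for post-implantation epiblast.

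Partners of Tdgf1 in Nodal signalling went both ways. Of 15 measured genes of that list 9 were higher and 6 lower in value, with a median of 0.030. Nodal, the ligand, had 281, 142 and 225 in null and 359, 330 and 747 in wild-type pools, lower in null without overlap (log2 difference -1.10; limma, adjusted p = 0.987). Gdf3, a related ligand, had 114, 108 and 79.6 against 47.8, 74.4 and 52.8 (0.80; limma, adjusted p = 0.966). Lefty2, a Nodal inhibitor, had 0.32, the related co-receptor Cfc1 had 0.0096 and Foxh1, the nuclear partner of the Smads, had 0.26.

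Partners of Lin28a were near even. Of 15 measured genes of the Lin28 and let-7 axis 6 were higher and 9 lower in value, with a median of -0.059. Trim71, an RNA-binding let-7 target, had -0.066, and Hmga2, another let-7 target, -0.24. Arid3a, a DNA-binding protein gene, had -0.37, the uridylyltransferase gene Tut4, which marks pre-let-7 with Lin28a, 0.22, and Drosha, the nuclear microRNA processing enzyme, 0.21. The median of the list was thus close to 0, as was the value of the bright Lin28a probe set.

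Markers of other cells that carry the same genes or lie nearby were read beside these values. Of 11 measured primordial germ cell markers 7 were higher and 4 lower in null, with summed signals of 10814 to 13645 in null pools against 11630 to 14787 in the wild type. Dppa3 (Stella), the defining germ cell marker, had 49.9 ± 18.1 in null against 71.9 ± 25.4 in wild type (SD, n = 3 each) and was dim. Prdm1 (Blimp1), a regulator of germ cell fate, had 320.1 ± 12.3 against 232 ± 41.0, and the germ line helicase gene Ddx4 148 ± 17.6 against 92.1 ± 31.96, both higher in null without overlap (limma, adjusted p = 1.00 for each). The other 2 markers without overlap were lower in null. Ifitm1 had 6692 ± 1128 against 8830 ± 1219, and Alpl had 214 ± 51.2 against 304 ± 35.8. Neither passed the test. Of 6 anterior neural plate markers 5 were higher in null, with sums of 464 to 1770 against 237 to 334, and of 248 to 403 against 176 to 230 without Otx2. All 7 extraembryonic ectoderm markers were higher in value, with sums of 3067 to 4189 against 2149 to 2994. Tfap2c, also a germ cell marker, makes up most of each sum, and without it the sums overlapped, at 541 to 820 against 362 to 546. Visceral endoderm markers overlapped, at 40450 to 57982 against 34220 to 82801. The sum of 82801 was that of wild-type pool 2, against 34220 and 44581 in wild-type pools 1 and 3. Heart markers overlapped too, at 366 to 704 against 217 to 393, as did primitive blood markers, at 249 to 541 against 188 to 408. All 7 visceral endoderm markers and 9 of 11 germ cell markers were at or above the median signal. So were 3 of 7 extraembryonic ectoderm, 2 of 6 anterior neural plate, 1 of 5 heart and 1 of 5 primitive blood markers. The part of these cells in the values of the 7 genes was not tested.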

How the data were processed

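The authors deposited linear intensities of 45101 probe sets on Affymetrix mouse whole-genome GeneChips, 1 value for each array. Per the labels' protocols, RNA of single embryos (30 to 50 ng) was amplified and pooled from 3 embryos (600 ng) for the second cycle. RMA stands in the submitters' processing notes, with no version. The values do not look like RMA output: they are linear, and each array has a mean of 500 once 2% is trimmed from both ends. The sources used here do not give the step that made them. The 64 control probe sets were left out, and 45037 remained. Of these, 34945 have 1 symbol in the platform annotation, 932 several, and 9160 are not listed. A list gene was read at the probe set with the highest mean log2 signal.

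Signals were turned to log2 without a floor and fitted with limma 3.58.1 in R 4.3.3 (lmFit, eBayes), as two-sided tests, Benjamini-Hochberg adjusted over all probe sets and a threshold of 0.05; intervals are 95%. Nothing says how the embryos of a pool were related, and p-values measure the spread between pools; 3 arrays per group limit the precision. The within-genotype SD had a median of 0.28 (log2) at or above the median signal and 1.08 below it. Replicate numbers were taken to pair the arrays, because all 3 same-number correlations at or above the median signal passed a bound of 0.1; over all probe sets they were 0.0537, 0.0524 and 0.0338, below it. The fits were run on simulated data with independent noise and changes placed only at or above the median signal. That run did not cover the replicate pairing or the dim probe sets.

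Members and lists were chosen with earlier results of these data known. Named beside the 7 members were the 3 genes per list with the smallest p at or above the median signal and the 5 genes most like Pou5f1 and the member mean. Sox2, Sall4, Dnmt3b, Cdh1, Cfc1, Foxh1, Trim71, Hmga2, Dppa3, Prdm1 and Ddx4 were chosen after their values were seen. The blocked fit was among the alternatives because an earlier analysis of these data had made calls with it. Alternatives were other units of test, filters, scalings, a pseudocount of 50, eBayes options, array weights, the replicate block and leaving out arrays.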

Additional observations from a re-analysis of the deposited data

How the results depend on the processing

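No alternative called any of the 10 probe sets, whether filters, scalings, pseudocount, array weights, the replicate block or left-out arrays were changed. L1td1, Tdgf1, Nanog and the 3 Utf1 probe sets kept a positive sign in every alternative run. Leaving out 1 array or 1 pair gave ranges of 0.63 to 1.16 for L1td1, 1.46 to 3.28 for Tdgf1, 0.22 to 1.55 for Nanog and 0.31 to 1.10 for the brightest Utf1 probe set, with 1.12 to 2.33 and 0.45 to 1.98 for the dim ones. The sign of the smallest differences turned. Pou5f1 ran from -0.53 to 0.29, the bright Lin28a probe set from -0.14 to 0.15 and the dim one from -0.074 to 0.64 when arrays were left out. Dppa4 ran from -0.49 to 0.32, and was -0.017 with log2(signal + 50) with or without the replicate block, -0.039 with median centring, -0.024 with cyclic loess, -0.013 with quantile normalization and -0.016 with array weights. The bright Lin28a probe set was -0.022 with median centring. The cause of these turns was not tested.

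The count over all probe sets was 0 in the planned fit and with the replicate block alone, 1 with trend and robust options, 22 with these and the replicate block, and 16 with log2(signal + 50) as well. The wider lists had 1 call, Otx2, with the block, trend and robust options, and 0 with log2(signal + 50) as well. For the members the replicate block changed no call. Signals below the median have a wide spread on the log2 scale, which limits Tdgf1, Dppa4 and the dim Utf1 probe sets.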

Other observations

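Of the 73 measured genes of the wider lists, 28 were higher and 11 lower in null in each pair. Over all 18193 genes these counts were 2811 and 2681. A few of them are given here, with Tfap2c from the cell type lists. Klf5, a Krüppel-like factor of naive cells, was lower in value in null pools in each pair, with a log2 difference of -0.94 (limma, adjusted p = 1.00). Klf4, another factor of that family, had 559 ± 494 in null and 249 ± 9.74 in wild type (SD, n = 3 each), with pair differences of 2.21, 0.17 and 0.062, so that its higher mean came from null pool 1. Fgf5, a growth factor gene of primed epiblast below the median signal, had a log2 difference of 2.28 (limma, adjusted p = 0.975), and its null pools did not overlap the wild-type pools. Dppa5a, a gene of naive cells, had 577 ± 181 against 384 ± 132 (SD, n = 3 each), higher in null in each pair. Tfap2c, a factor of germ cells and extraembryonic ectoderm, had 3126 ± 761 against 2098 ± 467 (SD, n = 3 each), also higher in each pair. None of these 5 genes passed the test, and they were named after their values were seen.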
